A study of Rattus norvegicus with 2 samples.

Results

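The nuclear genes of the mitochondrial respiratory chain were examined in the transcript annotation that the study assembled from RNA-seq of rat femur. Members were chosen by gene name: after removal of the endings for predicted and mapped genes and without regard to case, the name had to begin with Nduf, Uqcr, Cox4 to Cox8 or Atp5, or to be Sdha, Sdhb, Sdhc, Sdhd, Cyc1 or Cycs. The pattern took 50 of the 12567 gene names and 91 of the 43391 transcript models. Each of the 50 names lay on 1 locus, and none of these loci carried another name. Of the 50 proteins, 48 are subunits and 2, Ndufaf1 and Cox7a2l, are assembly factors.

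Both study groups were female wild-type Wistar rats. OVX rats had both ovaries removed, which lowers oestrogen and is used as a model of postmenopausal bone loss, and SHAM rats were operated on but kept their ovaries. The labels name 1 OVX and 1 SHAM sample, give 16 weeks for each without saying whether this is an age or a time after surgery, and describe the OVX sample as old and the SHAM sample as young; the methods of the study give 3 sequenced rats per group. Age and operation therefore cannot be told apart in the labels. The files hold exon positions, gene names and match classes of transcript models for the whole series, and no count, expression level or coverage for any rat. Depth is unknown, no value below belongs to 1 group, and no OVX to SHAM comparison was made. Levels, cell numbers and RNA per cell cannot be read from these models.

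The respiratory chain sits in the inner mitochondrial membrane. Complex I oxidises NADH and complex II oxidises succinate, both pass electrons through ubiquinone to complex III, cytochrome c carries them to complex IV, and complex IV reduces oxygen to water. Complexes I, III and IV pump protons, and complex V, the ATP synthase, uses their return to make ATP. Most subunits are encoded in the nucleus, as are all those considered here, and some complex IV subunits have separate genes for muscle and for other tissues. Bone-forming osteoblasts and bone-resorbing osteoclasts both contain respiring mitochondria, as do marrow cells and the muscle attached to a femur.

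Each transcript model is recorded as built in 1 or in both of the 2 assemblies that were merged. The assembly of a model built once was read from the transcript numbering, and neither assembly could be tied to a group or a rat. A full chain is a model whose introns match those of a reference transcript from first to last. That reference transcript can itself be short: Uqcrc1 had full chains of 13 and of 2 exons. Whole and complete mean below only that a full chain was built, since model length was not compared with coding length. A contained model is a fragment inside a reference transcript. The class new junction stands for at least 1 splice junction that differs from the reference. The class retained intron stands for an intron kept that the reference removes. Both classes were taken as the annotation gives them.

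Most respiratory chain genes had a full chain. Of the 50 genes, 46 (92.0%, exact binomial 95% interval 80.8 to 97.8) had a full chain in at least 1 assembly, beside 38.6% of all named genes. Full chains were present in the first assembly for 44 genes (88.0%, beside 31.4%) and in the second for 42 (84.0%, beside 27.5%). In 40 genes (80.0%, 66.3 to 90.0) both assemblies held one, beside 20.3% of all names. These intervals treat genes as independent draws, which genes of 1 pathway are not.

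A model recorded as shared by both assemblies was present for a larger share of the members than of all names. A transcript shared by both was recorded for 41 of 50 genes (82.0%, 68.6 to 91.4), beside 30.8% of all names. A shared full chain was recorded for 40, beside 20.1%. This nearly repeats the count of full chains in both assemblies and is not a separate result. Over all names 2555 genes had a full chain in both assemblies and 2522 a shared one. Transcripts in each assembly, shared or not, were present for 46 genes (92.0%), beside 76.5%. Only 3 genes (6.0%, 1.25 to 16.5) had contained fragments and nothing else, beside 27.1%.

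**Figure D1:**
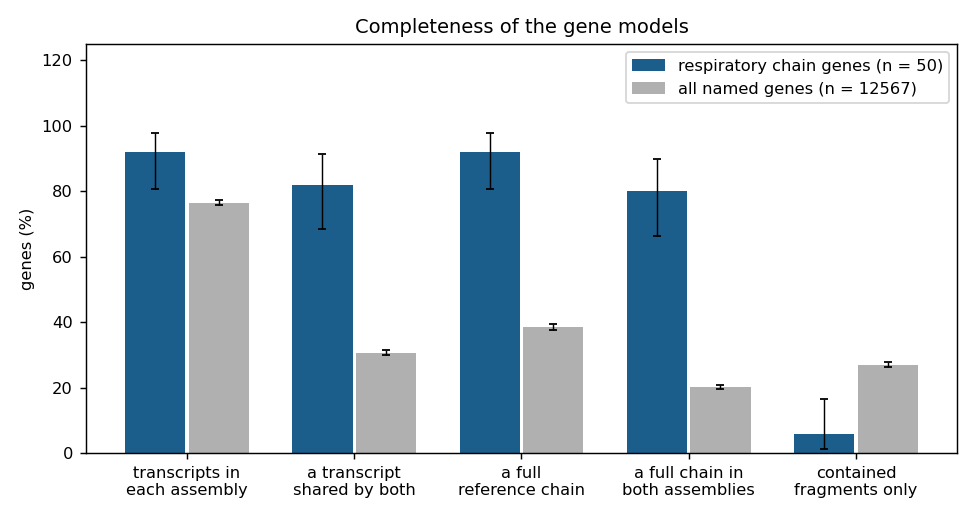
Share of genes (%) that met each of 5 criteria, for the 50 respiratory chain genes and for all 12567 named genes, with exact binomial 95% intervals as error bars. The share with a full chain in both assemblies was 80.0% for the respiratory chain genes and 20.3% for all named genes, and the order of the bars turned only for genes built as contained fragments alone.

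At the level of single models, 69 of the 91 member transcripts (75.8%, 65.7 to 84.2) were full chains and 15 (16.5%) were contained. A further 6 (6.59%) were classed as new junction and 1 (1.1%) as retained intron. Among all 38614 transcripts with a gene name these shares were 15.4%, 56.1%, 25.6% and 0.251%. Full chains were recorded as shared more often than contained models. Of the 69 member full chains 55 (79.7%) were built in both, against 1 of 15 contained models. Over all named transcripts 50.2% of full chains and 4.85% of contained models were shared.

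Exon number and length were set beside these shares. The median exon number of a transcript was 4.0 in the members and 4.0 over all named transcripts. The median of the most exons per gene was 4.0 in the members and 5.0 over all names. The median length of a transcript was 849 bp in the members and 592 bp over all named transcripts, and that of the longest model per gene was 1008 bp and 1000 bp. Among genes whose longest model had at most 1500 bp, a full chain in both assemblies was present for 33 of 40 members (82.5%) and for 13.6% of 8219 names. An incomplete gene is itself given a short longest model, so this bound does not select genes by their true length. Among the 7578 names that matched a RefSeq symbol, the share was 18.2%.

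The lowest share lay in the genes with the most exons. A full chain in both assemblies was present for 11 of 13 members (84.6%) with up to 3 exons, 17 of 21 (81.0%) with 4 to 6 and 10 of 11 (90.9%) with 7 to 10. With 11 exons or more it was present for 2 of 5, namely Atp5a1 and Uqcrc1. Over all names the corresponding shares were 21.3%, 17.6%, 20.6% and 23.4%. The other members with that many exons were Ndufs1, Sdha and Uqcrc2, and each of them had several fragments in 1 assembly. In the other assembly Sdha and Uqcrc2 had a full chain, and Ndufs1 had a contained model of 19 exons. Exon number was read from the built models, so an incomplete gene such as Ndufb6, a fragment of 2 exons, can fall in a lower class than its reference transcript, and the highest class holds only 5 members.

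**Figure D2:**
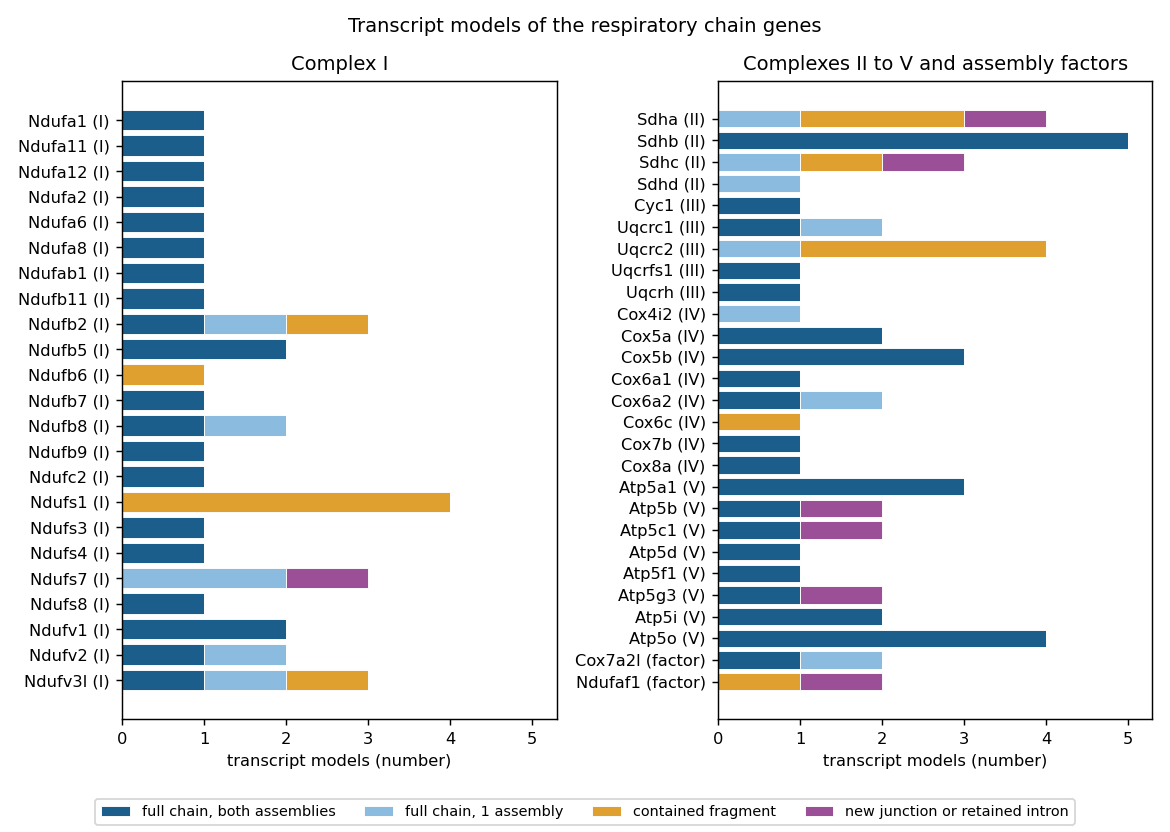
Number of transcript models for each of the 50 genes, with the complex in brackets and colours for full chains built in both assemblies, full chains built in 1 assembly, contained fragments, and models with a new junction or retained intron. All 4 models of Ndufs1 are contained fragments, whereas all 5 models of Sdhb are full chains of both assemblies.

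Complex I was represented by 23 of its 37 listed nuclear subunits, with 36 transcripts of 2 to 19 exons and a median of 4.0. Of these transcripts, 28 were full chains, 7 were contained, 22 were shared by both assemblies, 8 came from the first only and 6 from the second only. A full chain in both assemblies was present for 20 of the 23 genes, and 15 genes had a single transcript. A single transcript was recorded for 26 of all 50 members and for 3966 of the 12567 named genes. Among the single-transcript genes were Ndufa1, Ndufa2, Ndufa6, Ndufa8, Ndufa11 and Ndufa12, which code for accessory subunits around the catalytic core. These and the accessory genes Ndufab1, Ndufb5, Ndufb7, Ndufb8, Ndufb9, Ndufb11, Ndufc2 and Ndufs4 each had a full chain shared by both assemblies, of 3 to 6 exons and 517 to 1111 bp.

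The catalytic core of complex I carries the flavin and the iron-sulphur clusters. Ndufv1, which holds the flavin that accepts electrons from NADH (chromosome 1, 198845422 to 198850554, minus strand), had a full chain of 10 exons and 1577 bp and another of 7 exons and 1470 bp that started inside the gene, both shared. Ndufs8, an iron-sulphur subunit near the quinone site (chromosome 1, 198693132 to 198697960, minus strand), had 1 shared full chain of 7 exons and 783 bp. The core subunits Ndufv2 and Ndufs3 likewise had shared full chains, of 8 exons (1052 bp) and 7 exons (1056 bp). These core genes were thus complete in both assemblies.

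Ndufs1, the largest core subunit, which carries iron-sulphur clusters (chromosome 9, 61964578 to 61997902, minus strand), had the most transcripts and the most exons in complex I and no full chain. The first assembly held 1 model of 19 exons and 2245 bp, classed as contained. The second held 3 separate fragments of 5, 3 and 5 exons with 519, 395 and 657 bp. None of the 4 models was shared.

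Ndufs7, the iron-sulphur subunit that passes electrons to ubiquinone (chromosome 7, 7629037 to 7636550, minus strand), was the only member with a retained intron model. In the first assembly it had full chains of 8 exons (972 bp) and 6 exons (971 bp), and the shorter chain began inside the gene. The second assembly held a model of 7 exons and 786 bp in which the 70 bp intron between exons 5 and 6 of the longest chain was kept. The assemblies therefore disagreed on this intron, and no Ndufs7 model was shared.

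Complex I also held the member with the largest difference by 1 exon. Ndufv3l, an older symbol of Ndufv3 (chromosome 20, 11126338 to 11135487, plus strand), codes for an accessory subunit known to exist in a short and a long form that differ by 1 internal exon. A shared full chain had 3 exons and 484 bp. A full chain built in the second assembly only had 4 exons and 1534 bp, because it included an exon of 1050 bp, a multiple of 3. The first assembly held a contained fragment with 978 bp of that exon joined to the last one, so sequence of the long exon was built in both assemblies while the complete long form was built in 1.

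Ndufb6, an accessory subunit (chromosome 5, 54024682 to 54026101, minus strand), was represented by 1 contained fragment of 2 exons and 320 bp in the second assembly. Ndufb2, also accessory (chromosome 4, 63372188 to 63383475, plus strand), had full chains of 4665 and 4942 bp, the longest of all members, and the longer one started inside the gene. It also had a contained model of 338 bp in the first assembly. A large last exon accounted for the length of the full chains.

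Complex II is the smallest complex, is the only one with no subunit encoded in mitochondrial DNA, and is also the succinate dehydrogenase of the tricarboxylic acid cycle. All 4 subunit genes were found, with 13 transcripts of 2 to 15 exons and a median of 6.0. Of the 13, 8 were full chains, 3 were contained and 2 were classed as new junction. By assembly, 5 were shared, 5 were of the first and 3 of the second assembly only. All 4 genes had a full chain, but only Sdhb had one in both assemblies.

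Sdhb, the iron-sulphur subunit (chromosome 5, 151629681 to 151650475, plus strand), accounted for all 5 shared transcripts of complex II and had the most full chains of any member. The longest chain had 8 exons and 1152 bp. Chains of 7, 6 and 5 exons, with 1374, 1016 and 1312 bp, had the same start and ended 1176, 2817 and 4933 bp before the end of the gene. The last, of 3 exons and 660 bp, began 17454 bp downstream of the start. Every one of the shorter ends therefore lay in an intron of the longest chain, and each of these intron chains was that of a reference transcript.

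Sdha, the flavoprotein that oxidises succinate (chromosome 1, 27587801 to 27613368, plus strand), was whole in the second assembly, with a full chain of 15 exons and 2874 bp and a new junction model of 15 exons and 2063 bp whose first exon differed. In the first assembly it was split into contained models of 9 exons (1250 bp) and 6 exons (1355 bp), which together took up the same 15 exons. No junction between exons 9 and 10 was built there.

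Sdhc and Sdhd code for the membrane anchors that bind ubiquinone. Sdhc (chromosome 13, 83176205 to 83197071, minus strand) was whole in the second assembly, with 6 exons and 1172 bp. In the first it was broken into a contained model of 2 exons and 819 bp and a model of 3 exons and 227 bp classed as new junction. All introns of the latter were also in the full chain. Its last exon, of 99 bp, ran past the end of exon 4 of that chain, of 62 bp. Sdhd (chromosome 8, 50493183 to 50502645, minus strand) had 1 full chain, of 4 exons and 1242 bp, which only the first assembly held. Among the subunits of complex II, Sdhb alone thus gave the same models in both.

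**Figure D3:**
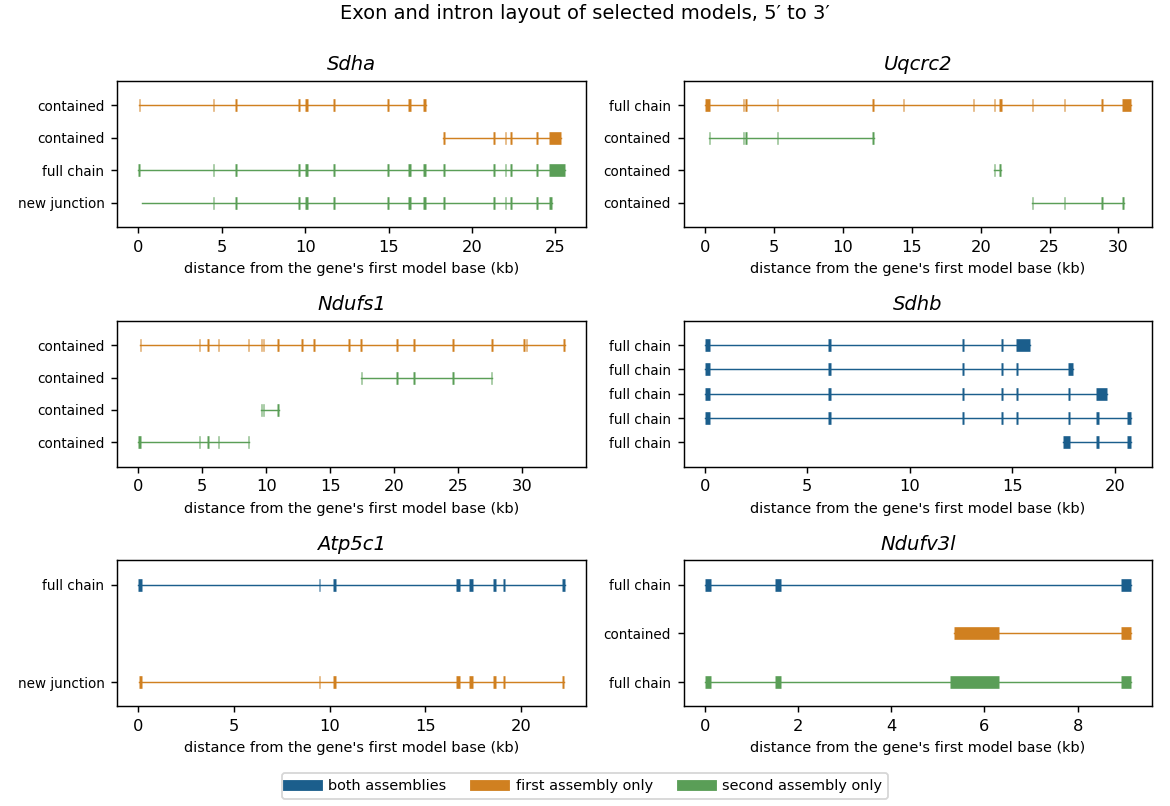
Exon and intron layout of every model of Sdha, Uqcrc2, Ndufs1, Sdhb, Atp5c1 and Ndufv3l, with exons as boxes, introns as lines and distance in kb from the first base of the gene in the 5′ to 3′ direction. Sdha is whole in the second assembly and split in the first, Uqcrc2 is whole in the first and split in the second, and the 5 Sdhb models are shared by both.

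Complex III was represented by 5 genes under the pattern, with 9 transcripts, of which 6 were full chains and 3 contained. In 4 of the 5 genes a full chain was built in both assemblies. Cyc1, the haem-bearing cytochrome c1 (chromosome 7, 104419424 to 104421809, plus strand), had 1 shared full chain of 7 exons and 1203 bp. Uqcrfs1, the Rieske iron-sulphur protein (chromosome 17, 33517047 to 33521601, plus strand), had 1 shared full chain of 2 exons and 1365 bp. Uqcrh, the hinge protein next to cytochrome c1, had one of 4 exons and 559 bp. Cyc1 and Uqcrfs1, the electron-carrying subunits encoded in the nucleus, were thus complete in both assemblies.

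Uqcrc1 and Uqcrc2 are the core proteins that face the matrix. Uqcrc1 (chromosome 8, 108883402 to 108895238, plus strand) had a shared full chain of 13 exons and 1652 bp, and a full chain of 2 exons and 453 bp that was built in the first assembly at the 3′ end of the gene. Uqcrc2 (chromosome 1, 172901926 to 172932844, plus strand) had the most transcripts and the most exons of the complex. The first assembly held its full chain of 14 exons and 2234 bp, and the second held contained fragments of 6, 2 and 4 exons with 561, 249 and 419 bp. The partner proteins of 1 complex thus differed in how completely the second assembly built them.

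A subunit of complex III outside the pattern, Uqcrq, was present under the older name Qpc. Cycs, the gene of cytochrome c, was not found under its name.

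Complex IV was represented by 8 of 18 listed nuclear subunits, with 12 transcripts of 2 to 5 exons. Of these, 11 were full chains and 10 were shared, and the other 2 came from the first assembly. Cox5b, which surrounds the catalytic core and binds zinc (chromosome 9, 36688325 to 36690481, plus strand), had the most transcripts, 3 shared full chains of 4 exons (816 bp), 3 exons (1338 bp) and 2 exons (488 bp). The 3-exon chain kept a 522 bp intron of the longest chain, and the 2-exon chain kept a 162 bp intron and ended early. Cox5a, its partner (chromosome 8, 57388496 to 57399974, plus strand), had shared full chains of 5 exons (665 bp) and 4 exons (576 bp).

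Several complex IV subunits exist as pairs of genes, one used in most tissues and the other in heart and skeletal muscle, lung or testis. Cox6a1, the general form of subunit VIa (chromosome 12, 42883040 to 42886192, plus strand), had 1 shared full chain of 3 exons and 648 bp. Cox6a2, its form in heart and skeletal muscle (chromosome 1, 180434352 to 180435252, minus strand), had a shared full chain of 3 exons and 629 bp. It also had, in the first assembly, a full chain of 586 bp whose second exon began 43 bp further in. Both forms of subunit VIa were therefore built in both assemblies.

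Cox4i2, the form of subunit IV known from lung and induced by low oxygen (chromosome 3, 139977832 to 139988757, plus strand), had the most exons of the complex, in a tie with Cox5a. Its only model, built in the first assembly, was a full chain with 5 exons and 740 bp. Cox8a, the general form of subunit VIII (chromosome 1, 201934714 to 201937134, minus strand), had 1 shared full chain of 2 exons and 594 bp. The partners Cox4i1 and Cox8b, and both members of the pairs Cox6b1 and Cox6b2 and Cox7a1 and Cox7a2, were not found under their names. Only subunit VIa could thus be compared between forms. Cox6c (chromosome 7, 64212147 to 64224776, minus strand) was the only member with a contained model that both assemblies shared, of 4 exons and 379 bp. Cox7b, a small membrane subunit on the X chromosome, had 1 shared full chain of 3 exons and 486 bp.

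In complex V both assemblies built whole models of every gene found. It was represented by 8 of 17 listed nuclear subunits, with 17 transcripts of 3 to 12 exons and a median of 5.0, of which 14 were full chains, 3 had a new junction and none was contained. Both assemblies held a full chain of all 8 genes found and shared 15 of the 17 transcripts.

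Atp5a1 and Atp5b code for the alpha and beta subunits that form the catalytic head. Atp5a1 (chromosome 18, 69811112 to 69819522, plus strand) had shared full chains of 12 exons (2321 bp), 7 exons (1703 bp) and 5 exons (1553 bp), and the shorter chains started inside the gene. The chain of 5 exons also kept a 100 bp intron of the longest chain. Atp5b (chromosome 7, 394625 to 401244, plus strand) had a shared full chain of 10 exons and 1901 bp, and in the first assembly a new junction model of 10 exons and 1742 bp in which exon 2 began 4 bp further in. Atp5o, the stalk subunit that confers sensitivity to oligomycin (chromosome 11, 30824781 to 30831221, minus strand), had the most transcripts of the complex, 4 shared full chains of 7, 4, 3 and 3 exons.

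The remaining subunits of the enzyme were also built in both assemblies. Atp5i, subunit e at the dimer interface (chromosome 14, 1341678 to 1342890, plus strand), had shared full chains of 4 exons (373 bp) and 3 exons (618 bp), which had the same start and differed in a retained intron of 245 bp. Atp5g3, a gene of the membrane ring subunit c (chromosome 3, 58337134 to 58340807, minus strand), had a shared full chain of 5 exons and 1750 bp. It also had a shared new junction model of 683 bp, the only new junction model of the members that both assemblies held. The first exon of that model, of 43 bp, began 1053 bp further in, inside the 1106 bp first exon of the full chain, and ended at another splice site. Atp5d, the delta subunit of the rotating stalk, and Atp5f1, subunit b of the fixed stalk, each had 1 shared full chain, of 4 exons and 957 bp and of 7 exons and 1242 bp.

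Atp5c1 codes for the gamma subunit, the rotating shaft, and its transcripts are known to skip a short exon in heart and skeletal muscle. At this locus (chromosome 17, 67910402 to 67932694, plus strand) a full chain of 9 exons and 1198 bp was shared by both assemblies. A new junction model of 8 exons and 1091 bp was built in the first assembly only and lacked exon 8, which has 37 bp and is not a multiple of 3. Whether this exon is the one known from muscle was not tested. In the same assembly, then, the gamma gene was built with and without the exon.

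Of the 2 assembly factors that the pattern took, Cox7a2l, which joins complexes into supercomplexes (chromosome 6, 10889441 to 10903386, plus strand), had a shared full chain of 3 exons and 1057 bp and a full chain of 4 exons and 1171 bp in the second assembly. They differed by an exon of 114 bp, a multiple of 3. Ndufaf1, an assembly factor of complex I (chromosome 3, 105552041 to 105561431, minus strand), had a contained model of 435 bp and a new junction model of 265 bp, both of 3 exons and in the first assembly. It and Cox4i2, Ndufb6 and Sdhd were the members without a transcript in each assembly.

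Some members had several full chains. In 16 of 50 genes (32.0%) 2 or more were built, beside 6.46% of all names, and 8 genes (16.0%) had 2 or more that both assemblies shared, beside 2.92%. The 23 further full chains of these 16 genes were compared with the chain with the most exons of the same gene. Each was given 1 kind only. In 13 the start lay inside the gene, in 5 the end did, 2 kept an intron between the same ends, 2 lacked an internal exon and 1 had a shifted splice site. A chain of Atp5a1 counted by its start and a chain of Cox5b counted by its end also kept an intron. These kinds were not counted over all named genes. Different starts and ends were therefore more frequent than different internal exons among them. A start read from an assembled model can also be the place where read coverage begins, and this was not tested.

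Related mitochondrial lists, chosen with earlier results of these data known, were counted in the same way. Of 38 listed assembly factors of the respiratory chain 18 were found, and 3 of them (16.7%) had a full chain in both assemblies, a share near the 20.3% of all named genes. The median of the most exons per gene was 4.0 in these factors and 4.0 in the members. Of 13 enzymes of the tricarboxylic acid cycle 10 were found, and 4 had one, with a median of 10 exons. Of 11 regulators of mitochondrial gene expression 9 were found and 0 had one. The regulators included Nrf1, a transcription factor of respiratory chain genes, with 2 full chains among 6 transcripts and no shared one, and Gabpa, the DNA-binding part of nuclear respiratory factor 2, with 0 full chains among 4 transcripts. These lists are small, and the differences between them were not tested.

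Markers of the cells that a femur sample can hold were counted as well. All 9 osteoblast and osteocyte names, among them Col1a1, Bglap and Sost, had models, and 7 (77.8%) had a full chain in both assemblies. Of 12 skeletal muscle names 7 were found, all 7 had a transcript shared by both assemblies and 6 (85.7%) had a full chain in both, including Acta1, Ckm and Mb. Of 7 erythroid names 4 were found and 2 had such a chain, and of 5 adipocyte names 3 were found and all 3 did. Full chains in both assemblies were therefore present for most bone and muscle markers found, and also for Cox6a2, while the bone markers Sp7 and Phex and the muscle marker Tnni2 had none in both. The part of muscle in the models of the respiratory chain genes was not tested.

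**Figure D4:**
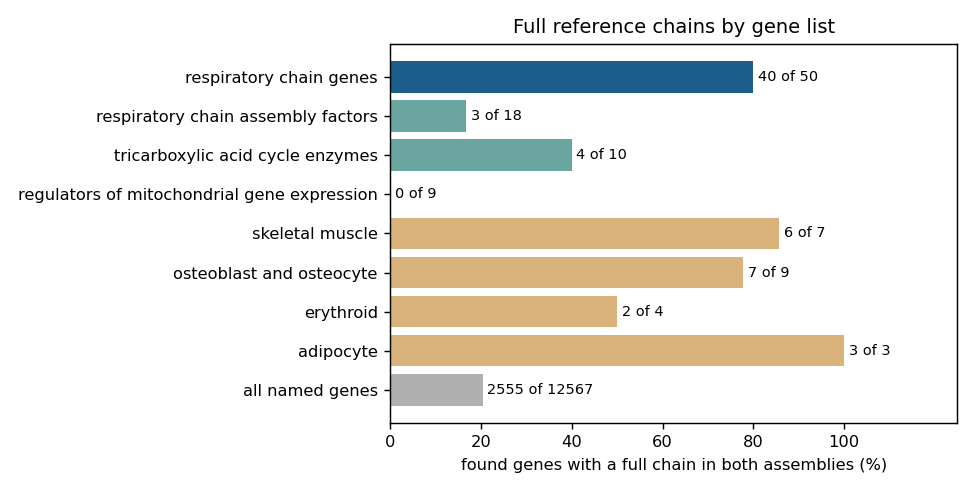
Share of found genes (%) with a full chain in both assemblies for the 50 respiratory chain genes, for 3 lists of other mitochondrial genes, for 4 lists of cell markers and for all named genes, with the counts at the end of each bar. The respiratory chain genes (40 of 50) sit near the skeletal muscle markers (6 of 7) and the osteoblast and osteocyte markers (7 of 9), and below the adipocyte markers (3 of 3). They sit above the erythroid markers (2 of 4), the tricarboxylic acid cycle enzymes (4 of 10), the assembly factors (3 of 18) and the regulators (0 of 9).

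Not finding a subunit by name did not show that its gene was not built. Against a list of 86 nuclear subunits, 49 were found, 1 of them under a name outside the pattern, and 37 were not. The annotation gives 4469 of its names (35.6%) in a provisional form that starts with rCG_. For 23 of the 37 subunits, protein-coding neighbours in the rat RefSeq annotation were present by name within 500 kb of each other, and in 22 of these intervals at least 1 locus with a provisional name lay between them. In 13 it was exactly 1. Between Col12a1 and Tmem30a, which flank Cox7a2, that locus was rCG_25255, with 2 full chains among 2 models. Between Cdr2l and Kctd2, which flank Atp5pd, it was rCG_33654, with 4 full chains among 4 models. The single loci between the neighbours of Cox8c (rCG_20667) and of Atp5pf (rCG_58724) had 0 full chains. These examples were chosen after their values were seen, and no subunit was assigned to a provisional locus. No count over intervals around other genes stands beside these counts, so they cannot be read as particular to the subunits.

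The members lay on 18 chromosomes, most often on chromosome 1 (9 genes) and chromosome 7 (8 genes), and for all 50 the chromosome was that of the matching RefSeq symbol. None had a gene of the study's list of new genes within 5 kb, and 2, Ndufa2 and Ndufs3, were overlapped by a locus on the other strand. No share over all named genes stands beside these counts, so they cannot be read as particular to the members. Without strand, reads of the overlap cannot be told apart. In 9 of 50 genes (18.0%, 8.58 to 31.4) the start lay within 1000 bp of the start of a named gene on the other strand, beside 5.67% of all names. The closest was Sdhd, whose start lay 92 bp from that of Timm8b, a chaperone of mitochondrial protein import. Atp5f1 and Wdr77 were 190 bp apart, and Ndufb5 and Mrpl47, which codes for a mitochondrial ribosomal protein, 290 bp. These starts were read from the assembled models, and an incomplete model can start inside its gene. A full chain was built for 92.0% of the members and for 38.6% of all names. The shares of 18.0% and 5.67% are therefore not like for like and cannot be read as particular to the members.

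Promoters were examined because these genes are known targets of nuclear respiratory factors 1 and 2 and, in most cases, lack a TATA box. Windows of 300 bases, 250 before and 50 after the RefSeq start in GRCr8, were available for 44 of the 50 members and 19005 protein-coding genes. The windows were searched on both strands for 5 strings, of which none contains another: an NRF-1 string (GCGCA, then any base, then GCGC), an ETS string (CCGGAAG), which nuclear respiratory factor 2 binds, a YY1 string (ATGGCGGC), TATAAA and the E-box CAGCTG, which muscle factors bind. The windows are RefSeq starts and not starts of the assembled models.

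Matches to the NRF-1, ETS and YY1 strings took larger shares of the members than of all promoters. The NRF-1 string was present in 9 of 44 windows (20.5%) and in 6.09% of all promoters. The ETS string was present in 15 (34.1%, beside 11.2%) and the YY1 string in 8 (18.2%, beside 3.54%). At least 1 of these strings lay in 26 windows (59.1%, beside 18.6%). TATAAA was present in 1 window (2.27%, beside 13.1%), that of Ndufa2, and the E-box in 5 (11.4%, beside 15.3%). The median number of CpG dinucleotides was 20.5 in the members (5 to 39) and 12.0 in all promoters. GC-rich strings are more frequent in CpG-rich windows, and the shares were not compared at equal CpG content.

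**Figure D5:**
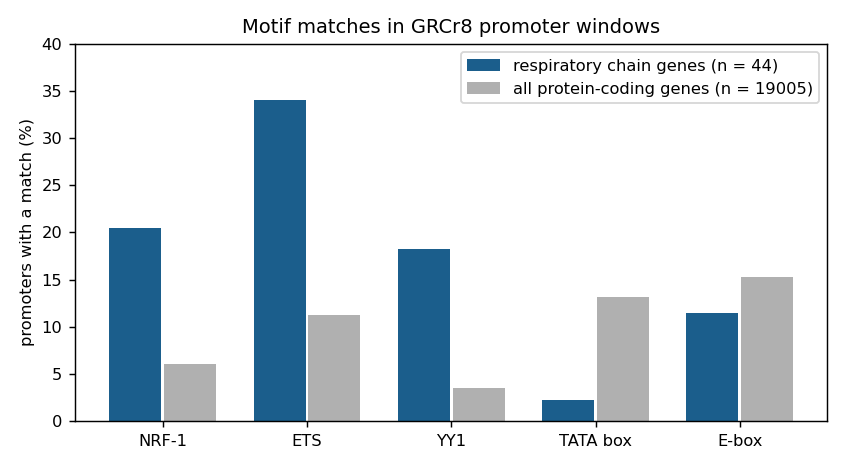
Share of GRCr8 promoter windows of 300 bases (%) with at least 1 match to each of 5 strings on either strand, for 44 respiratory chain genes and 19005 protein-coding genes. The members lie above all promoters for the NRF-1, ETS and YY1 strings and below for the TATA box, at 1 of 44 windows.

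The 250 bases before the start are shown for 4 members. Of these, 3 gave the same models in both assemblies and carried an NRF-1 or ETS string. The other is the muscle form Cox6a2, which carried no NRF-1, ETS or YY1 string and had the fewest CpG dinucleotides (5). Sequences are from RefSeq, build GRCr8, read 5′ to 3′ on the strand of the gene, and capitals mark the matches named. Atp5me, the current symbol of Atp5i, codes for subunit e of ATP synthase (chr14:1464610-1464859, plus strand) and has an NRF-1 match 76 to 67 bases and an ETS match 11 to 5 bases before the start. Atp5po is the current symbol of Atp5o (chr11:44657484-44657733, minus strand), with an NRF-1 match 59 to 50 bases before it, and an E-box nearer to the start that is left in lower case. Sdhb (chr5:158547684-158547933, plus strand) has an ETS match 108 to 102 bases before it, and Cox6a2 (chr1:192219717-192219966, minus strand) an E-box 107 to 102 bases before it.
Atp5me: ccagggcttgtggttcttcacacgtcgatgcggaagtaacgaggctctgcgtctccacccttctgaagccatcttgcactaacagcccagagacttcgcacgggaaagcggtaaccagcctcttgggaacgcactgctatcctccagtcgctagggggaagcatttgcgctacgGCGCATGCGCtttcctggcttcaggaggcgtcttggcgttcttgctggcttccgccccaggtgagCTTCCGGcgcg
Atp5po: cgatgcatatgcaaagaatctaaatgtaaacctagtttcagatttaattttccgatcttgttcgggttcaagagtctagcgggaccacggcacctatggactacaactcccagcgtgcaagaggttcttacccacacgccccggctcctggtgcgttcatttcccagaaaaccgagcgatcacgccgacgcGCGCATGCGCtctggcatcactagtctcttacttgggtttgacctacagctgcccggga
Sdhb: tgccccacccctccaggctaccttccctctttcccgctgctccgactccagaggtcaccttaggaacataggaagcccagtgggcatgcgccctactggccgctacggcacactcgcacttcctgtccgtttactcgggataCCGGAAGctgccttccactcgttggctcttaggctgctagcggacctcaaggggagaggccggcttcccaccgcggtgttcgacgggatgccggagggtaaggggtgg
Cox6a2: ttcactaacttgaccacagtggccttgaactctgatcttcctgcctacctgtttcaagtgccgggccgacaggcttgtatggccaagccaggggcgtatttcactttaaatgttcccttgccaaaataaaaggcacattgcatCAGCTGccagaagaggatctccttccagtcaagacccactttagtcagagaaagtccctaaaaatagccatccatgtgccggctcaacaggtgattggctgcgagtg

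A match describes letters in the window and does not show that a factor was bound in these femurs.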

How the data were processed

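RNA-seq libraries were made from total RNA of ground femurs with a SMARTER kit. Per the labels' processing notes, the authors used FastQC, HISAT2, StringTie and featureCounts and the build rn4, with versions not given in the sources used here. The deposited files, a merged transcript annotation and a list of 1507 new genes, hold positions and attributes, and no counts, scores or other values per sample. Positions are 1-based and as in the file. Its sequence records and provisional names may stem from another assembly than rn4, which was not checked against a genome. Sequences were assigned to chromosomes by their genes (99.1% of 5339 current symbols fell on the main chromosome).

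On each sequence the numbering of transcripts ran through both strands and then through both again, and 0 shared transcripts fell in the repeat, so models built once were placed in the first or second assembly by their number. Match classes were taken from the annotation, shares were given exact (Clopper-Pearson) binomial intervals at 95%, and the scripts were tested on simulated annotations. Of the member names 41 were current RefSeq symbols and 9 older ones. Python 3.11.15, pandas 2.3.3, numpy 2.4.6 and scipy 1.17.1 were used.

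The members and lists were chosen with earlier results of these data known. The genes named are the tissue isoform pairs of complex IV, a list of catalytic or defining subunits, the genes with the most transcripts and the most exons in each complex, and members with a rare class. Named outside this rule, after their values were seen, are Ndufv3l, Ndufb2, Ndufb6, Cox6c, Cox7a2l, Ndufaf1, Atp5i, Atp5g3, the members given as complete with no further result, the divergent gene pairs, the flanked provisional loci, the markers and the printed promoters. The planned expression comparison was not run, since no sample has values.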

Additional observations from a re-analysis of the deposited data

How the results depend on the processing

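Of 31 alternatives to the counts and shares of the members, 28 left the share within its 95% interval, the median at 4.0 exons or the count within 3 genes, and 3 moved the value further. Matching names exactly as written, without removal of the endings and with the case kept, found 32 genes in place of 50. Requiring a full chain that both assemblies share lowered the share of members with a full chain from 92.0% to 80.0%. Leaving out contained fragments raised the share of member transcripts that both assemblies share from 62.6% to 73.7%. The restrictions to RefSeq names and to short models were added after seeing the data. The planned share of members with a model as long as the coding sequence, and the identity of isoform proteins, were not run because no protein sequences were used here. No paired analysis was possible because each group has 1 sample and no sample has values, and for the same reason no replicate could be left out. Without counts, depth sets an unknown limit on which models could be built.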
